A study of Mus musculus with 12 samples.

Results

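The genes described here make the proteins that bring other proteins into mitochondria and that shape the inner membrane. They were chosen by name: protein-coding rows of the deposited tables whose symbols start with Timm, Tomm, Chchd or Micos followed by a digit, together with Immt, Apool, Apoo, Pam16, Dnajc19 and Timmdc1. This gave 38 genes, present both among the 16738 genes of the white fat table and among the 15363 genes of the brown fat table. The RefSeq gene table holds 41 protein-coding genes that meet the same rule, and Timm8a2, Tomm20l and Tomm6 are the 3 not analysed here. The rule reads names and types of genes and no expression value, but it was proposed with earlier results of these data known.

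RNA was sequenced from the inguinal white fat depot (iWAT), which lies under the skin, of C57BL/6 mice on a high-fat diet (HFD) at room temperature. The labels give 12 libraries in 4 groups of 3: KO females, KO males, WT females and WT males. KO mice carry an adipocyte deletion of NDUFS4, an accessory subunit of respiratory complex I, and the labels do not name the Cre driver, the age or how many animals a library holds. The comparison is the interaction of genotype and sex from the authors' deposited table, the log2 effect of KO against WT in females minus that in males. The same contrast was also deposited in a table that carries the name of brown fat (BAT), and the labels used here describe no brown fat group. An interaction above 0 can come from a higher level in KO females, a lower level in KO males or a difference among the WT groups, and these were not told apart. The order of the sexes is taken from the names of the tables, so every sign rests on that reading. Values per library were not analysed here, the depth behind each value is unknown, and each p-value rests on the spread among libraries, which may be technical.

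Nearly all mitochondrial proteins are made in the cytosol. The TOM complex of the outer membrane lets them in, the TIM23 complex and its motor pull those with a presequence into the matrix, small TIM chaperones and the TIM22 complex place carrier proteins in the inner membrane, and a disulphide relay traps small cysteine-rich proteins between the membranes. The MICOS complex holds the crista junctions, the narrow necks that join the folded inner membrane, where the respiratory chain sits, to its boundary part. Brown and beige adipocytes are known for many mitochondria with dense cristae, and white adipocytes for few.

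In white fat 34 of the 38 members (89.5%) lay above 0 in the authors' deposited table, against 55.9% of all 16738 genes. Their median log2 interaction was 0.82, and that of all genes was 0.13. The members outside MICOS, taken alone, had 27 of 31 above 0 and a median of 0.57. No member passed an adjusted p of 0.05 in limma, where 4.75% of all genes did and 1.06% did so above 0. At an unadjusted p of 0.05, 10 of the 38 members passed, all above 0, against 24.5% of all genes in either direction and 11.9% above 0. The count in either direction is close to the share over all genes, and the count above 0 is not. At an adjusted p of 0.10, 4 members passed, all of them MICOS genes above 0, against 12.1% of all genes and 4.67% above 0. A log2 interaction of 1 or more was found for 14 members, against 17.3% of all genes.

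In brown fat 26 of the 38 members lay above 0 in the authors' deposited table, against 51% of all 15363 genes, and their median was 0.12, against 0.01 over all genes. No member passed there either, where 0.013% of all genes did. At an unadjusted p of 0.05, 3 members passed above 0 and 1 below, against 3.33% of all genes above 0 and 6.51% in either direction. Adjusted p over the members ran between 0.600 and 0.992 in brown fat and between 0.0509 and 0.986 in white fat. Standard errors were larger in white fat for 33 of the 38 members, with a median of 0.41 in white fat and 0.25 in brown fat.

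**Figure D1:**
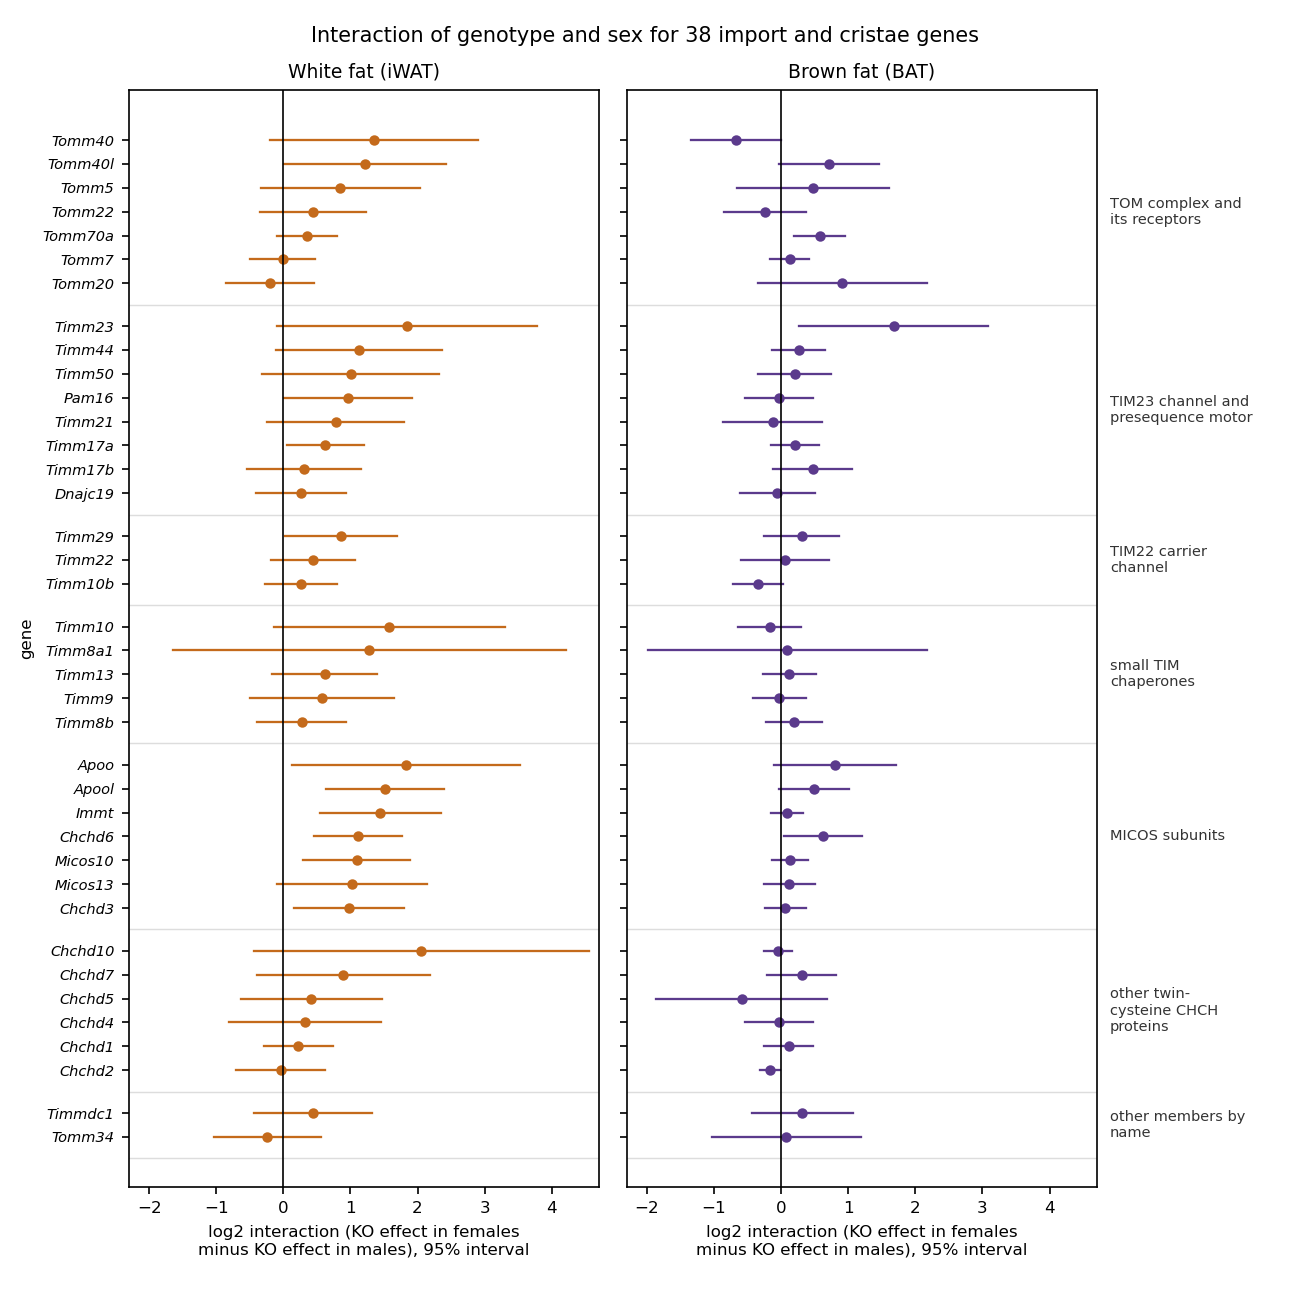
Log2 interaction (horizontal axis) of each of the 38 members (rows, grouped by role) in white fat on the left and brown fat on the right; points are the values of the authors' deposited table and bars are 95% intervals from its standard error. In white fat 34 members lie above 0, with all 7 MICOS subunits between 0.98 and 1.83, and in brown fat 26 members lie above 0.

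The subunits of MICOS stood highest as a group in white fat. All 7 were above 0, from 0.98 for Chchd3 to 1.83 for Apoo, with a median of 1.11, and 6 of the 7 passed an unadjusted p of 0.05, against 24.5% of all genes. Apool, which encodes a lipid-linked subunit of the complex, had a log2 interaction of 1.51 ± 0.41 (standard error, adjusted p = 0.0509 in limma) by the authors' deposited table. Chchd6, which encodes a small subunit that contacts the core protein, was at 1.11 ± 0.30 (adjusted p = 0.0509) by the authors' deposited table. Immt encodes mitofilin, the core protein that carries the crista junction, and was at 1.45 ± 0.42 (adjusted p = 0.0614) by the authors' deposited table. Expressed as a ratio, the KO to WT ratio of Immt in females was 2.73 times that in males. The same ratio of ratios was 2.85 for Apool and 2.16 for Chchd6. These 3 genes ranked 326th, 186th and 198th of 16738 by t-statistic from the top, in the order Immt, Apool and Chchd6.

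Apool and Chchd6 sat next to the threshold, where the choice of genes adjusted over decides the call. Adjusted over protein-coding genes alone both were at 0.0483, and over genes whose mean log2 expression reached 3.32 both were at 0.0481. With all values centred on the median of all genes, adjusted p was 0.0629 for Apool and 0.0715 for Chchd6, so over these alternatives it ran between 0.0481 and 0.0629 for Apool and between 0.0481 and 0.0715 for Chchd6. The largest unadjusted p that was called in white fat was 0.00236, and Apool had 0.00251.

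The other 4 MICOS genes had wider errors or smaller estimates. Micos10 encodes the small membrane protein that bends the inner membrane at the junction, and the authors' deposited table gave 1.09 ± 0.37 (adjusted p = 0.0953). Chchd3, the partner of mitofilin that faces the intermembrane space, was at 0.98 ± 0.38 (adjusted p = 0.138) by the authors' deposited table. Apoo, the closest relative of Apool, had the highest estimate and a wide error in the authors' deposited table, at 1.83 ± 0.79 (adjusted p = 0.174) with a mean log2 expression of 2.74. Micos13, which encodes a bridging subunit, was at 1.03 ± 0.52 (adjusted p = 0.237) by the authors' deposited table, and its 95% interval of -0.09 to 2.14 includes 0. Apoo and Apool are on the X chromosome, as are Timm17b and Timm8a1. Without the 4 X-linked members 30 of 34 lay above 0 in white fat.

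In brown fat the 7 MICOS genes also lay above 0. Their median was 0.12, and Apoo, Chchd6 and Apool were the highest of them at 0.80, 0.62 and 0.49 in the authors' deposited table. The group ran between 0.06 for Chchd3 and 0.80 for Apoo in the authors' deposited table. Chchd6 alone of the 7 passed an unadjusted p of 0.05, at 0.62 ± 0.28 (adjusted p = 0.745) by the authors' deposited table. The share of all genes that did so was 6.51%. Immt was at 0.09 ± 0.12 (adjusted p = 0.937) in the brown fat part of the authors' deposited table, with a 95% interval of -0.15 to 0.32. The upper end of that interval lies under the lower end of the white fat interval of Immt, which was 0.54 to 2.35.

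The 5 members with the smallest p in white fat are all MICOS genes, and their promoters are shown because these members lay together. The stretches are from the RefSeq promoter table on GRCm38.p6, an older build than the GRCm39 of the deposited tables, and run from 250 bases before the annotated start to 30 bases after it. They lie for Apool at chrX:112311102-112311381 (plus strand), Chchd6 at chr6:89595623-89595902 (minus strand), Immt at chr6:71831070-71831349 (plus strand), Micos10 at chr4:139131008-139131287 (minus strand) and Chchd3 at chr6:33060231-33060510 (minus strand). Micos10 has a second annotated start, and the first entry of the table is shown. Sequences are 5′ to 3′ on the strand of the gene, and capitals mark matches, wholly inside the stretch, on either strand to the motifs named beneath them.
Apool: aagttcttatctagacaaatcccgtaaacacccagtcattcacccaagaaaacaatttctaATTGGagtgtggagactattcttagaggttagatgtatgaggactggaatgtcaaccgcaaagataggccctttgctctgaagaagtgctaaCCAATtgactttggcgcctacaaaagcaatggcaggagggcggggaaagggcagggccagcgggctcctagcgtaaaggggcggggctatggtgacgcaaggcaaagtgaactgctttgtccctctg
Chchd6: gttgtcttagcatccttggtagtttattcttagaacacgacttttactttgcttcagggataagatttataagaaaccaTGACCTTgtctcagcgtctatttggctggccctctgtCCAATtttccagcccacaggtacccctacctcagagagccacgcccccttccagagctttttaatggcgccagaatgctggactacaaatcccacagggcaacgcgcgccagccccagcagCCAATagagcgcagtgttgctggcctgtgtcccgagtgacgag
Immt: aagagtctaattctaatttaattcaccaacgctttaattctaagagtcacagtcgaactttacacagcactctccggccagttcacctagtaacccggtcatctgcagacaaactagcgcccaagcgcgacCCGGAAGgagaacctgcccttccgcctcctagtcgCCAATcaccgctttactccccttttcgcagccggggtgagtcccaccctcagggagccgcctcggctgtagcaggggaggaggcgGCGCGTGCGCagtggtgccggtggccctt
Micos10: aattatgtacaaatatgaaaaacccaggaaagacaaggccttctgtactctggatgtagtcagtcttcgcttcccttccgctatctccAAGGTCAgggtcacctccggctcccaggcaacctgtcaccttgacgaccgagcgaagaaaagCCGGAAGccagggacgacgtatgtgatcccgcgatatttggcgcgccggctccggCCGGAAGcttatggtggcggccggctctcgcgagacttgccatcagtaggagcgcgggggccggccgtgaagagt
Chchd3: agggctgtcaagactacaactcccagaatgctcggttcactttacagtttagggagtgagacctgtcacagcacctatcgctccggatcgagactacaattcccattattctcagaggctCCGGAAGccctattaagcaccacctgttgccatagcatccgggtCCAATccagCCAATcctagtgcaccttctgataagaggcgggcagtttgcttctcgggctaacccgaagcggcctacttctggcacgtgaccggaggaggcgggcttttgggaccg

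The motifs searched were GCGCA, any base and GCGC for NRF1, CCGGAAG for ETS factors, AAGGTCA for ERR (a half-site that other nuclear receptors share), CCAAT for NF-Y and AAGATGGC for YY1, in windows of 300 bases on both strands. NRF1, the ETS factor GABP, ERR and YY1 are known regulators of nuclear genes for mitochondrial proteins. Of the 38 members, 33 had a window, and 24 of these held at least 1 of the 5 motifs, against 53.6% of 27025 genes. All genes are here the 27025 with a RefSeq window, not only those measured in fat, and shares over measured genes alone were not computed. The ETS motif was found for 13 of the 33 members (39.4%) and 9.93% of all genes. NRF1 was found for 5 members (15.2%) and 5.19% of all genes, and ERR for 5 members (15.2%) and 5.38% of all genes. The NF-Y motif was found for 11 members (33.3%) and 41.1% of all genes, and YY1 for 1 member, Timm50 (3.03%), and 3.19% of all genes. Among the 7 MICOS genes, ETS matches were in Chchd3, Immt and Micos10, ERR matches in Chchd6 and Micos10, and the NRF1 match in Immt. NF-Y matches were the most frequent of these, in Apool, Chchd3, Chchd6 and Immt. The windows of Apoo and Micos13 held none of these letters. In 1 place, at Timm23, an ETS and an ERR match overlapped. A match is a description of letters, not a bound site.

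**Figure D2:**
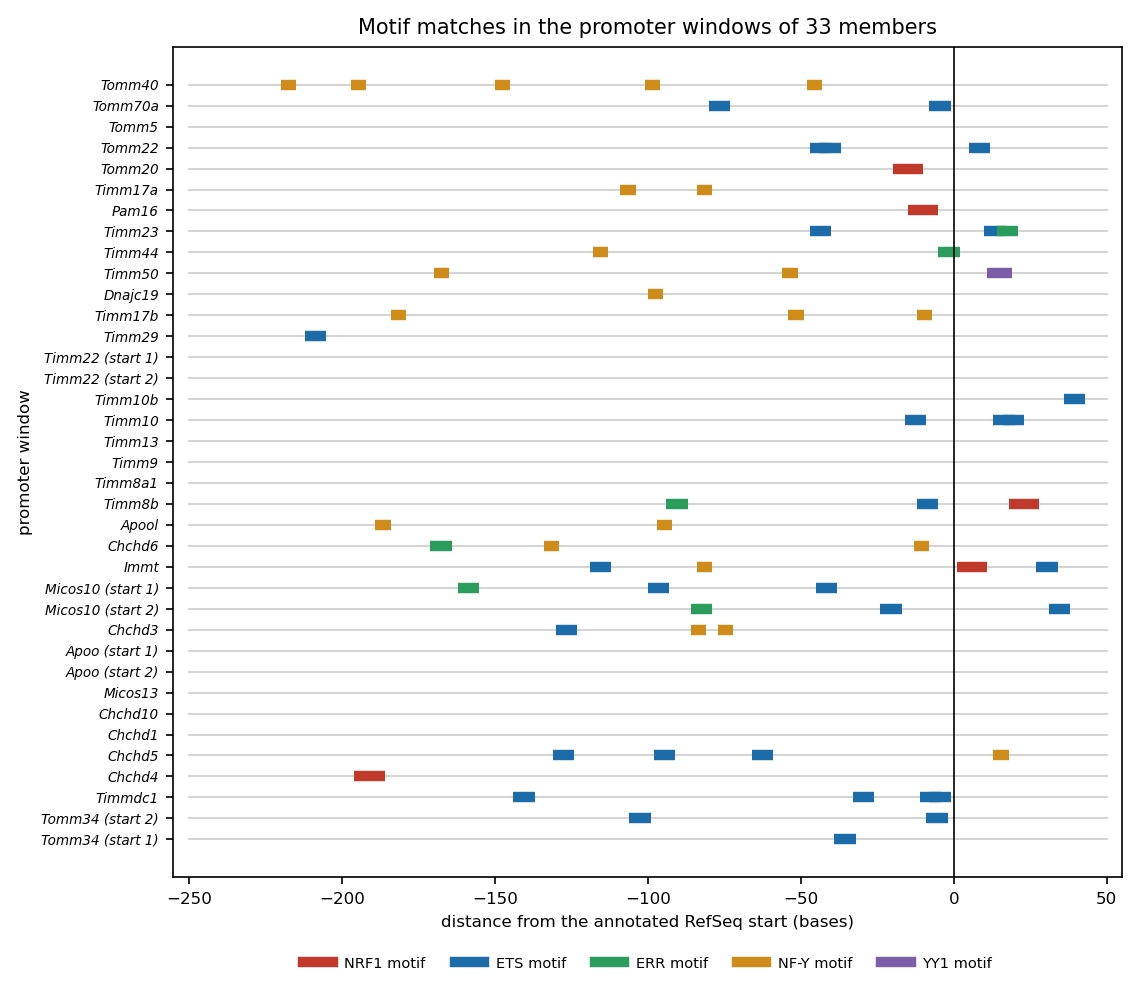
Positions of motif matches (coloured bars) in the promoter windows of the 33 members with an entry in the RefSeq table, from 250 bases before to 50 bases after the annotated start; members with more than 1 annotated start have a row for each. ETS matches, found for 13 members, lie on both sides of the start, and rows with no bar held none of the 5 motifs.

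The TOM complex, the entry gate of the outer membrane, was less uniform. Of its 7 members 5 lay above 0 in white fat, with a median of 0.44, and 1 passed an unadjusted p of 0.05. Over all genes 24.5% passed in either direction and 11.9% above 0. Tomm40, the pore itself, was at 1.35 ± 0.72 (adjusted p = 0.261) in the white fat part of the authors' deposited table and at -0.67 ± 0.33 (adjusted p = 0.765) in the brown fat part. Its relative Tomm40l had the same sign in both depots of the authors' deposited table, with 1.22 ± 0.56 (adjusted p = 0.203) in white fat and 0.71 ± 0.37 (adjusted p = 0.782) in brown fat. Tomm40 was the highest member of the group in white fat and the lowest in brown fat.

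The receptors that read targeting signals had estimates of both signs. Tomm20, the receptor for presequences, was at -0.19 ± 0.30 (adjusted p = 0.722) in white fat and 0.91 ± 0.62 (adjusted p = 0.852) in brown fat in the authors' deposited table. Tomm22, the central receptor, had the opposite order in the authors' deposited table, with 0.44 ± 0.37 (adjusted p = 0.479) in white fat and -0.23 ± 0.30 (adjusted p = 0.935) in brown fat. Tomm70a, the receptor for carrier proteins, lay above 0 in both, at 0.35 ± 0.21 (adjusted p = 0.314) in white fat and 0.57 ± 0.19 (adjusted p = 0.600) in brown fat in the authors' deposited table. It had the smallest p of any member in brown fat and ranked 60th of 15363 genes by t-statistic from the top. The intervals of Tomm20 and Tomm22 included 0 in both depots. The receptors were not tested against one another, so no order among them can be read.

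The small TOM subunits help assemble the pore. Tomm7 had one of the best determined values in the authors' deposited table, with a white fat interaction of -0.01 ± 0.23 and a 95% interval of -0.50 to 0.48. In brown fat Tomm7 was at 0.13 ± 0.14 in the authors' deposited table. Tomm5 was at 0.85 ± 0.55 in white fat and 0.47 ± 0.56 in brown fat in the authors' deposited table, and both intervals included 0.

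All 8 members of the TIM23 channel and its motor lay above 0 in white fat, with a median of 0.87. Of these 2 passed an unadjusted p of 0.05, a share close to the 24.5% of all genes in either direction. Both were above 0, where 11.9% of all genes passed. These 2 were Timm17a, a channel subunit, at 0.63 ± 0.27 (adjusted p = 0.167), and Pam16, which holds back the motor's co-chaperone, at 0.96 ± 0.44 (adjusted p = 0.198) by the authors' deposited table. In brown fat 5 of the 8 lay above 0, with a median of 0.20, and Timm17a and Pam16 had interactions of 0.21 ± 0.18 and -0.04 ± 0.25 by the authors' deposited table. Timm17b, the X-linked form of Timm17a, was at 0.31 ± 0.39 in white fat and 0.47 ± 0.29 in brown fat in the authors' deposited table.

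Timm23, which gives the complex its name, had the highest estimates of the group in both depots. The authors' deposited table gave 1.84 ± 0.90 (adjusted p = 0.225) in white fat and 1.68 ± 0.69 (adjusted p = 0.690) in brown fat. It was also the member with the highest interaction in brown fat and the 1 member there at or above 1, against 7.28% of all genes. Its mean log2 expression was low, at 1.64 in white fat and 2.92 in brown fat (tables normalised separately). The RefSeq gene table lists a pseudogene that carries a Timm23 synonym, and the treatment of reads that fit both was not given in the sources used here. Its value is therefore uncertain.

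The other 4 members of the TIM23 group had like signs in white fat. Timm44, the scaffold that ties the motor to the channel, was at 1.13 ± 0.58 (adjusted p = 0.242) in white fat and 0.26 ± 0.19 (adjusted p = 0.870) in brown fat in the authors' deposited table. Timm50, the receptor that hands presequences to the channel, was at 1.001 ± 0.61 in white fat and 0.20 ± 0.27 in brown fat in the authors' deposited table. Timm21, which links the complex to TOM and to the respiratory chain, was at 0.78 ± 0.47 in white fat and -0.13 ± 0.36 in brown fat in the authors' deposited table. Dnajc19, a J protein related to the motor's co-chaperone, was the lowest of the 8 in white fat at 0.26 ± 0.31, with -0.05 ± 0.28 in brown fat in the authors' deposited table. The 95% intervals of these 4 genes included 0 in both depots.

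The TIM22 complex, the insertion site for carrier proteins, had 3 members above 0 in white fat and 2 in brown fat. Timm29, a structural subunit, was the highest at 0.86 ± 0.39 (adjusted p = 0.191) in white fat and 0.30 ± 0.28 (adjusted p = 0.899) in brown fat in the authors' deposited table. Timm22, the channel subunit, was at 0.44 ± 0.29 in white fat and 0.06 ± 0.32 in brown fat in the authors' deposited table. Timm10b, the small TIM protein docked on the complex, was at 0.26 ± 0.25 in white fat and -0.34 ± 0.18 (adjusted p = 0.796) in brown fat in the authors' deposited table. Timm29 passed an unadjusted p of 0.05 in white fat and the other members of the group in neither depot. The share of all genes that passed was 24.5% in white fat and 6.51% in brown fat.

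Small TIM chaperones escort hydrophobic proteins across the intermembrane space as rings of paired subunits. All 5 lay above 0 in white fat, with a median of 0.62, and none passed an unadjusted p of 0.05, against 24.5% of all genes. Timm9 and Timm10 form one ring together, yet their estimates stood apart, at 0.57 ± 0.50 and 1.58 ± 0.80 in white fat in the authors' deposited table. The errors are wide enough that the intervals of these partners overlap. In brown fat the authors' deposited table gave -0.03 ± 0.19 for Timm9 and -0.17 ± 0.23 for Timm10. The other ring is made of Timm13 and a Timm8 protein, and Timm13 was at 0.62 ± 0.36 in white fat and 0.12 ± 0.20 in brown fat in the authors' deposited table. Timm8b was at 0.27 ± 0.31 in white fat and 0.19 ± 0.21 in brown fat in the authors' deposited table. Timm8a1, the mouse counterpart of the human deafness-dystonia gene, had the lowest mean log2 expression of all members in white fat at 0.03. Its interaction of 1.28 ± 1.36 in white fat in the authors' deposited table had the widest error of the 38.

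Proteins with a twin-cysteine CHCH fold are trapped between the membranes by the disulphide relay. Chchd4, the oxidoreductase at the head of that relay, was at 0.32 ± 0.53 (adjusted p = 0.734) in white fat and -0.03 ± 0.25 (adjusted p = 0.991) in brown fat in the authors' deposited table. Chchd10 had the highest white fat interaction of all 38 members, at 2.06 ± 1.16 (adjusted p = 0.287) by the authors' deposited table. Its 95% interval of -0.43 to 4.55 includes 0. In brown fat, with a far smaller error, Chchd10 was at -0.05 ± 0.10 (adjusted p = 0.980) by the authors' deposited table. Chchd2, its paralog, differed from it in white fat only by estimates whose intervals overlap, at -0.04 ± 0.31 (adjusted p = 0.952) by the authors' deposited table. In brown fat Chchd2 was at -0.17 ± 0.08 (adjusted p = 0.745) by the authors' deposited table, the 1 member below 0 at an unadjusted p of 0.05, against 3.18% of all genes.

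Chchd1, a protein of the mitochondrial ribosome, was at 0.23 ± 0.24 in white fat and 0.11 ± 0.18 in brown fat in the authors' deposited table. Chchd7 was at 0.90 ± 0.60 in white fat and 0.31 ± 0.25 in brown fat, and Chchd5 at 0.42 ± 0.49 in white fat and -0.59 ± 0.63 in brown fat, in the authors' deposited table. Of the 6 genes of this group 5 lay above 0 in white fat and 2 in brown fat, with medians of 0.37 and -0.04. A pair of members belongs to the list by name more than by role. Timmdc1, an assembly factor of complex I, was at 0.45 ± 0.41 (adjusted p = 0.521) in white fat and 0.31 ± 0.37 (adjusted p = 0.935) in brown fat in the authors' deposited table. Tomm34, a cytosolic co-chaperone, was the lowest of the 38 in white fat at -0.24 ± 0.37 (adjusted p = 0.719), with 0.08 ± 0.55 (adjusted p = 0.985) in brown fat in the authors' deposited table.

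**Figure D3:**
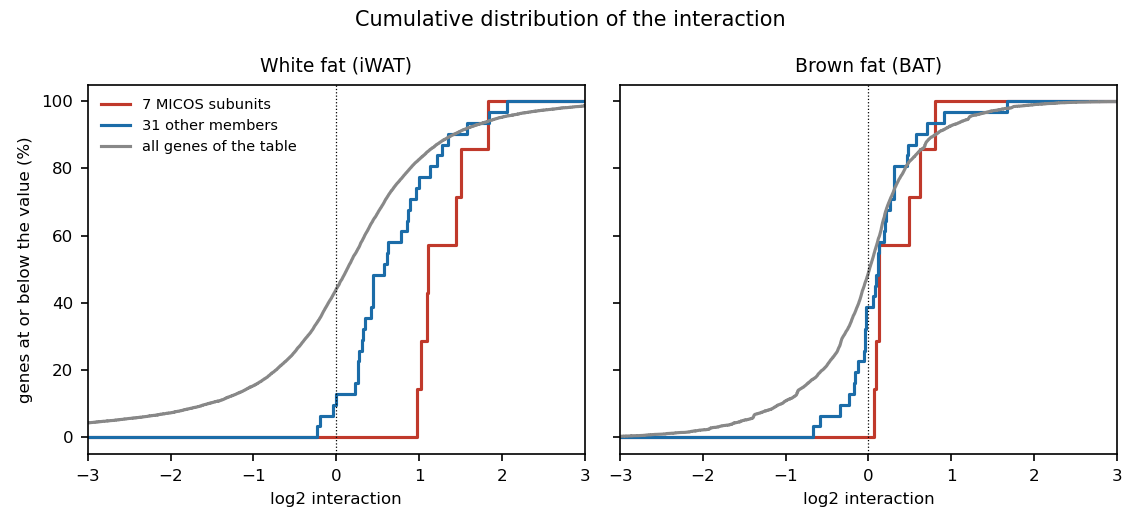
Share of genes (vertical axis, percent) with a log2 interaction at or below the value on the horizontal axis, for the 7 MICOS subunits, the 31 other members and all genes, in white fat on the left and brown fat on the right; the horizontal axis is drawn from -3 to 3. In white fat the MICOS curve starts at 0.98, the median of the other members is 0.57 and that of all genes 0.13, whereas in brown fat the medians are 0.12, 0.11 and 0.01.

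Did the depots differ? The white fat interaction was higher than that of brown fat for 33 of the 38 members, against 58.4% of the 14502 genes in both tables. The median difference was 0.58 for the members and 0.20 for all shared genes. No member passed a test of the difference with Benjamini-Hochberg adjustment over all shared genes, where 0.248% of genes did. At an unadjusted p of 0.05, 5 members passed, all above 0, against 15.7% of shared genes in either direction and 9.73% above 0. The test takes the tables as independent, and the labels do not say whether the depots came from the same animals.

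Immt had the smallest p of the difference, with 1.36 ± 0.44 and a 95% interval of 0.43 to 2.29 (adjusted p = 0.159). Tomm40 had a difference of 2.02 ± 0.79 (interval 0.37 to 3.68, adjusted p = 0.225), and its interactions had opposite signs. The other 3 that passed unadjusted were the MICOS genes Micos10 at 0.97 ± 0.39, Chchd3 at 0.91 ± 0.41 and Apool at 1.02 ± 0.48 (adjusted p = 0.248, 0.289 and 0.300 in that order). The highest difference was that of Chchd10, at 2.11 ± 1.16 (adjusted p = 0.405), and its interval included 0. The lowest difference was that of Tomm20, at -1.10 ± 0.69 (interval -2.49 to 0.29, adjusted p = 0.442). For Timm23 the difference was 0.16 ± 1.14 with an interval of -2.16 to 2.48, too wide to say whether the depots were alike.

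Members with opposite signs in the 2 tables numbered 14, or 11 above 0 in white fat only and 3 in brown fat only, against 45.4% of shared genes. Both interactions were above 0 for 23 members, against 32.2% of shared genes, and below 0 for 1 member, Chchd2. Across the 38 members the interactions of the depots had a Pearson r of 0.23 and a Spearman rho of 0.18, given as a description, since genes of one library share its depth and composition. Over all 14502 shared genes the same values were 0.05 and 0.09.

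**Figure D4:**
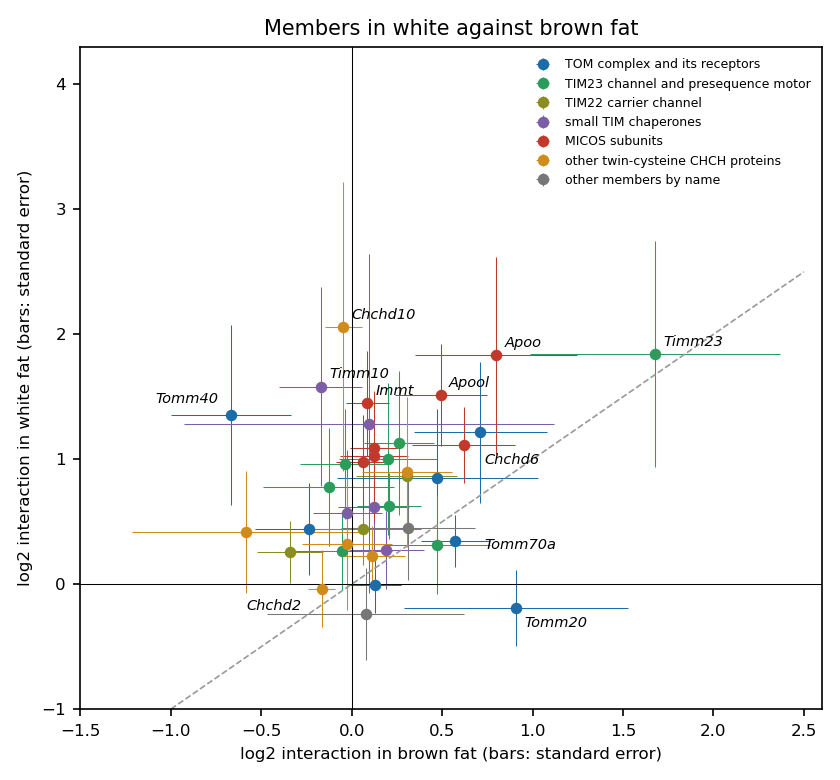
Log2 interaction of each of the 38 members in white fat (vertical axis) against brown fat (horizontal axis), coloured by role, with bars of 1 standard error and a dashed line of equal values. The white fat value is the higher one for 33 members, with Tomm40 at 1.35 in white fat and -0.67 in brown fat, and Tomm20 at -0.19 in white fat and 0.91 in brown fat.

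Genes of import and cristae that the rule leaves out also lay mostly above 0 in white fat. Of 25 such genes, all in both tables, 22 lay above 0 in white fat, against 55.9% of all genes, with a median of 0.92. At an unadjusted p of 0.05, 12 passed, all above 0, against 24.5% of all genes in either direction and 11.9% above 0. The difference between these genes and the members was not tested. Pmpcb, the catalytic subunit of the matrix peptidase that cuts off presequences (chromosome 5, 21942139 to 21962150, GRCm39), was the 1 gene past the adjusted p, at 2.23 ± 0.52 (adjusted p = 0.0368) by the authors' deposited table. Over all genes 1.06% passed above 0. Pmpca, the other subunit of that peptidase, was at 0.90 ± 0.41 (adjusted p = 0.193) by the authors' deposited table. Hspa9, the matrix chaperone that drives the motor, was at 1.32 ± 0.37 (adjusted p = 0.0559), and Mtx2, a metaxin of the outer membrane, at 1.28 ± 0.40 (adjusted p = 0.0773) by the authors' deposited table. In brown fat 21 of the 25 lay above 0 with a median of 0.13, none passed the adjusted p and 1 passed unadjusted, against 6.51% of all genes. Pmpcb was at 0.09 ± 0.24 (adjusted p = 0.980) there in the authors' deposited table.

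Marker lists of several cell types lay away from 0 in the same white fat contrast, among which T and B cell markers passed in number, and their part in the members' values was not tested. In bulk tissue, fewer cells of a type and less RNA per cell cannot be told apart. Mature adipocyte markers were measured at a high level, with mean log2 expression between 6.40 and 12.80 over all 10, and all 10 lay above 0 with a median of 0.48 and none past the adjusted p. In brown fat 8 of the 10 lay above 0 with a median of 0.20 and none passed the adjusted p. There 4 passed unadjusted, all above 0, against 6.51% of all genes. Among the 10 macrophage and among the 10 skeletal muscle markers 4 each also passed unadjusted in brown fat, all below 0. In white fat 2 mature adipocyte markers passed unadjusted, both above 0, against 24.5% of all genes. Thermogenic adipocyte markers had 9 of 9 above 0 with a median of 3.20 in white fat. Kcnk3 alone of them passed in the authors' deposited table, at 3.20 ± 0.81 (adjusted p = 0.0438), against 1.06% of all genes above 0. In brown fat 6 of these 9 lay above 0 with a median of 0.11, and none passed. Ucp1, the uncoupling protein that defines brown and beige adipocytes, had a log2 interaction of 3.29 ± 5.70 (adjusted p = 0.749) in the white fat rows of the authors' deposited table and 0.09 ± 0.14 (adjusted p = 0.948) in the brown fat rows. All 10 skeletal muscle markers, of a tissue rich in mitochondria, were above 0 in white fat (median 3.75) and below 0 in brown fat (median -3.40), with none past the adjusted p in either.

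Lymphocyte markers lay far below 0 in white fat, with 0 of 10 T cell markers and 0 of 10 B cell markers above 0 and medians of -7.35 and -9.29. Of these 9 T cell and 5 B cell markers passed the adjusted p, against 4.75% of all genes in either direction. In brown fat 4 T cell and 5 B cell markers were listed, with medians of 0.08 and -0.32 and none passing. Macrophage markers were at a median of -0.23 in white fat and -0.83 in brown fat, with 2 of 10 above 0 in each. All 7 listed mammary epithelial markers were above 0 in white fat, with a median of 1.74 and none passing, and none was listed in brown fat. Ranges of these lists in each group of libraries were not analysed here. Ndufs4 itself was at 0.89 ± 0.38 (adjusted p = 0.169) in white fat and -0.10 ± 0.14 (adjusted p = 0.946) in brown fat in the authors' deposited table, which does not check the genotype of either sex.

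**Figure D5:**
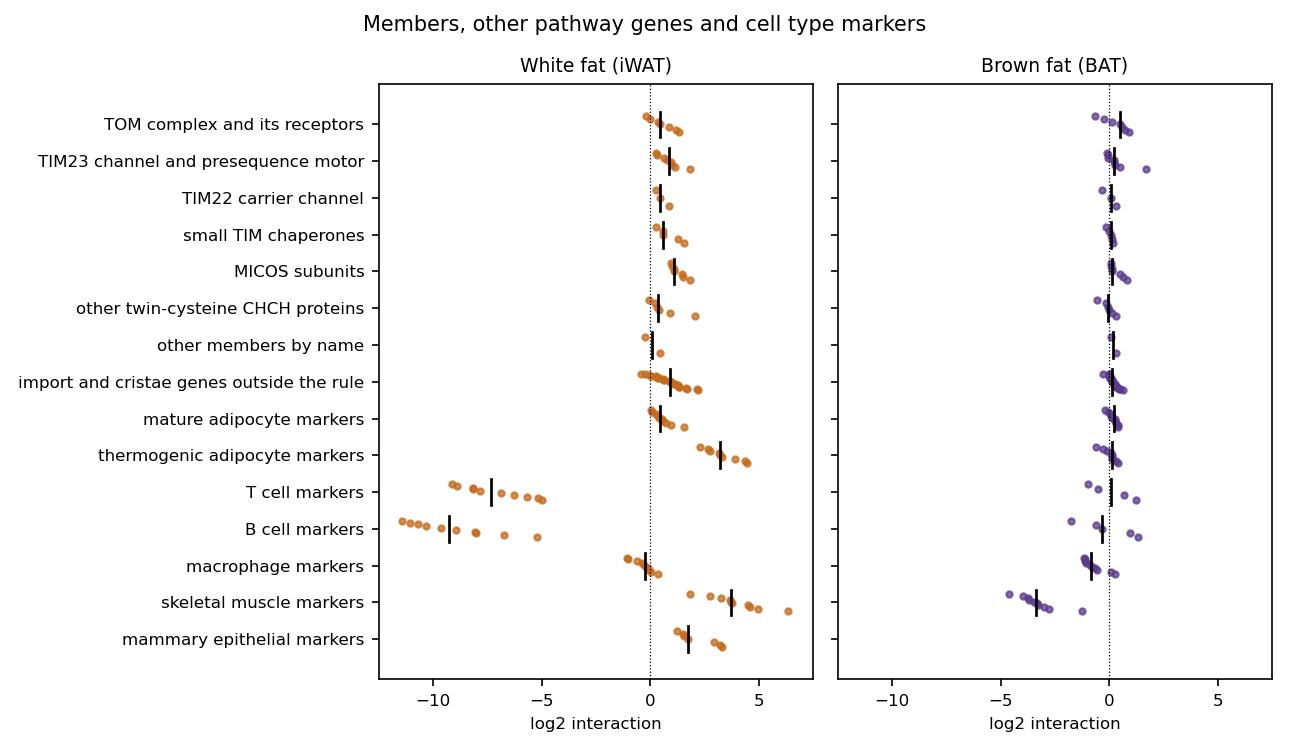
Log2 interaction (horizontal axis) of every gene of the 7 role groups, of the import and cristae genes outside the rule and of the cell type marker lists, in white fat on the left and brown fat on the right; points are genes and black bars are list medians. The members' medians lie between 0.10 and 1.11 in white fat, beside thermogenic markers at 3.20, muscle markers at 3.75, and T and B cell markers at -7.35 and -9.29.

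Reads of overlapping genes limit some values. In white fat 12 members overlap another listed gene, 10 of them above 0, and in brown fat 13 do. The longest overlap was that of Dnajc19 with Fxr1 on the other strand, at 14303 bases, followed by Pam16 with Glis2 on the other strand, at 8461 bases. Chchd2 shares 6315 bases with Phkg1 on its own strand, and Chchd10 shares 3367 bases with Mmp11 on the other. In white fat Fxr1 was at 0.46 ± 0.21 (adjusted p = 0.197) by the authors' deposited table, the same sign as Dnajc19. Glis2, Mmp11 and Phkg1 had white fat interactions of -0.54 ± 0.50, -0.55 ± 0.58 and 0.04 ± 0.95 by the authors' deposited table. Some shorter overlaps have partners further from 0. Stk4, which shares 848 bases with Tomm34, the lowest member in white fat, was at -1.91 ± 0.53 (adjusted p = 0.0559) by the authors' deposited table. Arfip2, which shares 361 bases with Timm10b, stood at 0.97 ± 0.31 (adjusted p = 0.0783) in white fat by the authors' deposited table. Timm10b also shares 3086 bases with Gm45799 on its own strand, listed as a partner in brown fat. Gm45799 was at 1.46 ± 1.16 (adjusted p = 0.879) in brown fat by the authors' deposited table. Of the MICOS genes, Immt shares 380 bases with Gm44771 on the other strand and Chchd3 shares 2996 bases with Gm42895 on its own. These partners were at 3.18 ± 1.32 (adjusted p = 0.161) and 1.36 ± 1.24 (adjusted p = 0.520) in white fat by the authors' deposited table. The part of any partner in a member's value was not tested. Use of strand in the counting was not given in the sources used here, so reads of such partners cannot be told apart. Without the overlapping members 24 of 26 lay above 0 in white fat and 19 of 25 in brown fat, with a brown fat median of 0.20 in place of 0.12. The RefSeq gene table also lists pseudogenes named for Chchd2, Dnajc19, Timm29 and Apoo, none of them in the deposited tables.

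The precision of the fit sets what could be called. At the largest p called in white fat, a member needed a log2 interaction of between 0.77 for Tomm70a and 5.07 for Timm8a1 to pass, with a median of 1.53 over the 38. In brown fat the same size ran between 0.43 for Chchd2 and 5.80 for Timm8a1, with a median of 1.43. Estimates smaller than this could not be called, which does not show that the sexes responded alike.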

How the data were processed

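RNA was sequenced from inguinal white fat in 12 libraries of 4 groups of 3. The submitters' processing notes name featureCounts, limma and the GRCm39 build. Versions, aligner, annotation and strand setting were not given in the sources used here. Both log2 values, the interaction and the mean expression, are fitted values of the authors, deposited with no statement of their normalisation or offset. Each t-statistic, a score without unit, was deposited by the authors, and the p-values and adjusted p-values are those of the authors' deposited table. The adjusted ones were checked to equal a Benjamini-Hochberg adjustment over all genes of each table.

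The column names of library values match no label, so 48 such columns, 12 in each of 4 tables, were used in no step, and the depth is unknown. Standard errors were computed as the size of the interaction over that of t, and t with p gave 13.4 degrees of freedom in white fat and 33.9 in brown fat, which set the 95% intervals. The depot difference was divided by the root of the summed squared errors, two-sided, with Welch-Satterthwaite degrees of freedom, adjusted over 14502 shared genes, and the step was tested on simulated data. The threshold was 0.05.

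The members and lists were chosen with earlier results of these data known. Named genes were, per role group, the highest and lowest in each depot, any past the threshold and the core subunits, with others added to complete a group. Outside the rule they were those past the threshold and the 3 smallest p in white fat, with Pmpca added after its value was seen. Ndufs4, Kcnk3, Ucp1 and the overlap partners were also chosen after their values were seen. Sequences are from RefSeq on GRCm38.p6, matched by symbol. Tables were handled with pandas 2.3.3 and numpy 2.4.6 under Python 3.11.15, distributions came from scipy 1.17.1, and figures were drawn with matplotlib 3.10.9.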

Additional observations from a re-analysis of the deposited data

How the results depend on the processing

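No paired analysis was possible because the columns of library values carry no replicate number or other label. For the same reason the fits without each replicate and with other pseudocounts were not run. In white fat the count of members called, 0 as reported, was 2 over protein-coding genes only, 2 over genes whose mean log2 expression reached 3.32 and 4 at a threshold of 0.10 (Apool, Chchd6, Immt and Micos10), and it was 0 relative to the median of all genes. All genes called in white fat numbered 795 (4.75%) as reported and 2027 (12.1%) at 0.10. They numbered 769 of 13793 over protein-coding genes only, 551 over genes whose mean log2 expression reached 3.32 and 960 relative to the median of all genes. For the depot difference 36 of all shared genes were called as reported, 235 at 0.10, 58 relative to the median of each table and 341 with a normal distribution, while the count of members was 0 under each of these and over protein-coding genes. Relative to the medians, the depot differences of Chchd1 and Timm8b turned to -0.00572 and -0.0381. In brown fat no member was called under any alternative run. Other alternatives, chosen after seeing the data, left out overlapping, X-linked or low-expressed members or centred on the median of all genes. In that order, 24 of 26, 30 of 34, 30 of 34 and 34 of 38 members lay above 0 in white fat. In brown fat these were 19 of 25, 22 of 34, 24 of 36 and 26 of 38. Leaving out a few members can lower such a count by no more than their number, so little change was possible there. The white fat median of 0.82 became 0.87 without overlapping members, 0.70 without X-linked members and 0.62 without low-expressed members. Relative to the median of all genes it was 0.69. The brown fat median of 0.12 became 0.20, 0.12 and 0.12 under the same 3 exclusions.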
